A study of Mus musculus with 18 samples.

Results

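The suppressors of cytokine signaling (SOCS) family is described here in bone marrow-derived macrophages (BMMs) that lacked or overexpressed the glucocorticoid-induced leucine zipper (GILZ). The members were taken by name and not by their values, and comprise Socs1 (ENSMUSG00000038037), Socs2 (ENSMUSG00000020027), Socs3 (ENSMUSG00000053113), Socs4 (ENSMUSG00000048379), Socs5 (ENSMUSG00000037104), Socs6 (ENSMUSG00000056153), Socs7 (ENSMUSG00000038485) and Cish (ENSMUSG00000032578). All 8 were found among the 38887 genes measured.

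Cytokines such as interferons, interleukin-6 and GM-CSF bind receptors that carry Janus kinases (JAKs), which phosphorylate the receptor and activate STAT transcription factors. STATs switch on SOCS genes, among others, and the SOCS proteins then bind JAKs or phosphorylated receptors through an SH2 domain and, through their SOCS box, recruit a cullin ubiquitin ligase, which closes a negative feedback loop. In macrophages, SOCS1 is known as a brake on interferon signaling and SOCS3 on signaling through gp130, the receptor chain for interleukin-6. CISH and SOCS2 are best known as feedback inhibitors of STAT5-activating receptors, whereas SOCS4 to SOCS7 have been linked more to growth factor and insulin receptors.

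WT, GILZ KO and GILZ TG mice were compared, as untreated cells and as cells exposed for 4 h to lipopolysaccharide (LPS) at 100 ng/ml, a cell wall component of Gram-negative bacteria that activates macrophages through Toll-like receptor 4. The 18 libraries made 6 groups of 3. WT animals are described as Lyz2-Cre mice, which carry Cre recombinase at the lysozyme M locus and therefore in myeloid cells. GILZ KO animals carried loxP sites around exon 6 of Gilz (Tsc22d3) together with Lyz2-Cre. GILZ TG animals carried a Gilz-1 cDNA in the ROSA26 locus behind a stop cassette flanked by loxP sites, also with Lyz2-Cre. Per the labels and the study's methods, the mice were female on a C57BL/6J background and aged 10 to 23 weeks, and bone marrow cells were differentiated with M-CSF. Within a treatment, each library comes from an independent preparation of cells. Which untreated and LPS-treated libraries share a preparation or an animal is not given in the sources used here.

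Libraries held 14583055 to 38557029 reads on genes. Tsc22d3, which encodes GILZ, was at 16.5 ± 2.08 TPM (SD, n = 3) in untreated WT, at 2.34 ± 0.46 in GILZ KO and at 156 ± 3.93 in GILZ TG, in the direction of the labels. TPM is transcript abundance scaled by transcript length and by the library's total. After LPS it was 5.15 ± 0.63, 2.91 ± 0.39 and 132 ± 7.64 TPM in the same order. Lyz2 itself was between 6766 and 15401 TPM in the 6 WT libraries and between 17.2 and 70.3 TPM in the other 12. Cre at this locus is described for all 3 genotypes, so the Lyz2 levels go against an equal state of the locus in WT, and how many copies of Cre each genotype carried is not given in the sources used here. In every comparison with WT, the state of the Lyz2 locus and the Gilz genotype cannot be told apart. All 8 macrophage markers were above 1 TPM in every group, with sums of 3971 to 5047 TPM. GILZ TG replicates 1 and 2 stood apart in both treatments by the summed TPM of other lineages, which was 79.7 to 153 for 8 B lineage markers (3 of them at a mean of 1 TPM or more, 16.8 to 35.9 in the other libraries, with Pax5, Ms4a1 or Cd79a at 0 in whole groups), 83.4 to 120 for 8 stromal fibroblast markers (6 of them, 5.09 to 22.9 elsewhere) and 188 to 517 for 10 neutrophil lineage markers (5 or 6 of them, 21.3 to 84.4 elsewhere). The tests of the members in GILZ TG were therefore repeated with replicate 3 of GILZ TG alone, where the spread is taken from the other groups and the single GILZ TG library is assumed to vary like them. Such a fit has less power, so its log2 values are given and a missed threshold in it is not read as a loss of the difference. The part of these cells in the results was not tested. In RNA from a mixed culture, fewer cells of a type and less RNA per cell cannot be told apart.

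STAT and interferon-regulated elements next to these genes belong to the feedback loop. The 250 bases upstream of the RefSeq start of Socs1, Socs3 and Socs4 are therefore shown (RefSeq, GRCm38.p6, 5′ to 3′ on the gene's strand). These members had a window at hand that did not overlap an annotated untranslated region. They were not chosen by their LPS response, and the windows are not a comparison of members with and without one. Capitals mark matches to the STAT motif TTCNNNGAA or to the ISRE core GAAANNGAAA, the element of interferon-stimulated genes, searched on both strands along with the NF-kB consensus.
Socs1: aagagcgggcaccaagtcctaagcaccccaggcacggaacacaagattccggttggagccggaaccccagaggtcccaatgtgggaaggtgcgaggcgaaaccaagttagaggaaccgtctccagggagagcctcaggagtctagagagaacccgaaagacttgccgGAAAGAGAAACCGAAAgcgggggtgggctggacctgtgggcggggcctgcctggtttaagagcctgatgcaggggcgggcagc
Socs3: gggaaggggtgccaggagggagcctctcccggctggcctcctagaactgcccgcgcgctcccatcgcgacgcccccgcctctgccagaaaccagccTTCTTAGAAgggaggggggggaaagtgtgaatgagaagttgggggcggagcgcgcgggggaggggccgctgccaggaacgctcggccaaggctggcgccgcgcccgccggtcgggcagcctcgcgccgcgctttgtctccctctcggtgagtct
Socs4: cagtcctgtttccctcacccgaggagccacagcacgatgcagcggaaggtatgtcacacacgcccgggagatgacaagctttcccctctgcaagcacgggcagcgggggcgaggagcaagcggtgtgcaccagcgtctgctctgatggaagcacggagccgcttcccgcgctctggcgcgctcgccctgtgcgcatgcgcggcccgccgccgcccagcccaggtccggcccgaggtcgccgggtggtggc
The Socs1 stretch, chr16:10785537-10785786 on the minus strand with 61.2% G and C, held 2 ISRE core matches that overlap, GAAAGAGAAA at −83 to −74 and GAAACCGAAA at −77 to −68 from the start. The Socs3 stretch, chr11:117969367-117969616 on the minus strand with 71.6% G and C, held 1 STAT match, TTCTTAGAA, at −154 to −146. This window lies 181 to 430 bases upstream of the first base of the GENCODE coding transcript. It lies inside the Socs3 gene as GENCODE annotates it, at 117966079 to 117970047. The Socs4 stretch, chr14:47276670-47276919 on the plus strand with 70.4% G and C, held no match. The NF-kB consensus was not found in these 3 windows. Among 32851 mouse promoter windows of the same length, 7.02% held the STAT motif, 2.98% the ISRE core and 3.9% the NF-kB consensus, so a match describes the letters only.

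In untreated BMMs the family was led by Socs6 and Socs3, and Socs2 and Cish were barely present. Socs6, the member closest to Socs7 and linked to receptor tyrosine kinases, was at 29.0, 29.5 and 23.4 TPM in the 3 WT libraries, 29.2, 30.1 and 25.1 in GILZ KO and 26.8, 26.7 and 24.9 in GILZ TG. Socs3 was at 20.9, 26.8 and 24.2 TPM in WT, 20.9, 26.7 and 27.3 in GILZ KO and 24.9, 25.9 and 30.7 in GILZ TG. The 2 genes overlapped in level in all genotypes. Socs5 followed at 13.3 to 16.0 TPM over the 9 untreated libraries, Socs4 at 10.8 to 12.8 and Socs7 at 6.87 to 9.2, and within each genotype these 3 did not overlap. Socs1 came next with 2.29 to 3.73 TPM. Cish was at 0.19 to 0.68 TPM and Socs2 at 0.07 to 0.82, in counts 7 to 22 and 2 to 21 reads per library. These 2 overlapped in WT and GILZ TG and not in GILZ KO, where Cish was the higher.

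**Figure D1:**
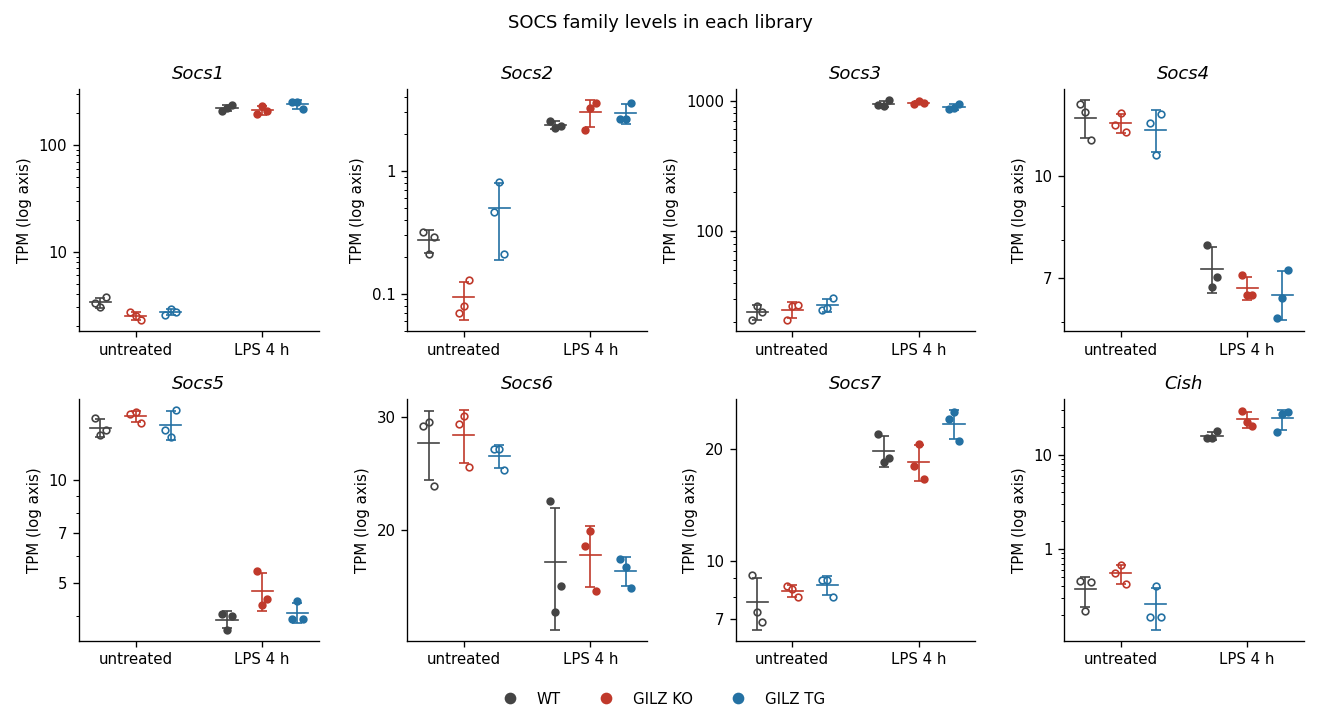
TPM of the 8 SOCS family genes (log axis, 1 panel per gene) in each of the 18 libraries, by genotype (WT grey, GILZ KO red, GILZ TG blue) and treatment (open points untreated, filled points LPS for 4 h), with bars for mean ± SD (n = 3). The LPS libraries of Socs1, Socs2, Socs3, Socs7 and Cish lie above the untreated ones in every genotype, and those of Socs4, Socs5 and Socs6 lie below them on the TPM scale.

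LPS reordered the family. Fold changes with LPS were taken from counts after TMM normalization, which centres the bulk of genes (median log2 fold change of all genes −0.02 in each genotype). TPM instead divides by the library's total, and on the log2(TPM + 0.1) scale the median of all genes shifted by −0.62 in WT, −0.64 in GILZ KO and −0.62 in GILZ TG, so a fall of that size in TPM is what the median gene shows. By edgeR's quasi-likelihood test with Benjamini-Hochberg adjustment over 13169 genes, 5 of 8 members rose and 1 fell in WT, and 5 rose and 2 fell both in GILZ KO and in GILZ TG. Of all genes, 33.5% were called higher and 35.1% lower in WT, 33.2% and 35.4% in GILZ KO, and 33.6% and 35.1% in GILZ TG. The 5 that rose were Socs1, Socs2, Socs3, Socs7 and Cish in each genotype. Socs2 passed the filter on low counts only through the LPS libraries, so its place among those that rose was favoured by the filter. Without that filter, 5 members were also called higher in each genotype. The median log2 fold change of the 8 members was 2.92 in WT, 3.55 in GILZ KO and 2.66 in GILZ TG. By limma on either TPM scale, 5 members were called higher and 3 lower in each genotype, as Socs4 and Socs6 were then called lower. With replicate 3 of GILZ TG alone, the log2 fold change in GILZ TG was 6.98 for Socs1, 6.98 for Cish, 5.60 for Socs3, 2.09 for Socs7, −1.36 for Socs5 and 0.07 for Socs6.

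Socs1 had the largest fitted fold change of the family in each genotype. It went from 3.28, 3.01 and 3.73 TPM to 207, 221 and 238 in WT, from 2.73, 2.50 and 2.29 to 196, 232 and 207 in GILZ KO, and from 2.55, 2.91 and 2.70 to 255, 253 and 216 in GILZ TG. The log2 fold change was 6.69 (SE 0.11) in WT, 7.02 (SE 0.12) in GILZ KO and 7.09 (SE 0.11) in GILZ TG, or 103-fold, 130-fold and 136-fold (edgeR, adjusted p = 2.86e-17, 4.9e-17 and 2.3e-17). Its place among all genes by mean TPM moved from 10202 to 777 in WT. The gene lies on chromosome 16 at 10782240 to 10785536 (GRCm38, minus strand), directly downstream of the window with the ISRE core matches.

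Socs3 became the most abundant member by far. WT libraries rose to 925, 909 and 1006 TPM, GILZ KO to 945, 987 and 955 and GILZ TG to 865, 876 and 948, a range in which the genotypes overlapped. The log2 fold change was 5.92 (SE 0.13) in WT, 5.95 in GILZ KO and 5.67 in GILZ TG, or 60.5-fold, 61.6-fold and 51.0-fold (edgeR, adjusted p = 2.33e-16, 4.03e-16 and 3.47e-16). With rank 178 of all genes by mean TPM in WT, 177 in GILZ KO and 200 in GILZ TG, its transcript was among the most abundant of these cells. Socs3 lies on chromosome 11 at 117966079 to 117970047 (minus strand).

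Cish, which encodes the founding member of the family, rose from 0.46, 0.22 and 0.44 TPM to 15.33, 15.04 and 17.96 in WT. In GILZ KO it rose from 0.55, 0.68 and 0.42 TPM to 29.4, 22.5 and 20.4, and in GILZ TG from 0.19, 0.40 and 0.19 to 17.8, 27.4 and 28.5. All LPS libraries were far above all untreated ones. The log2 fold change was 6.21 (SE 0.25) in WT, 6.05 in GILZ KO and 6.71 in GILZ TG (edgeR, adjusted p = 3.92e-13, 4.27e-13 and 2.04e-13), on 12, 12 and 14 reads in the untreated WT libraries and 427, 501 and 679 after LPS. Cish (chromosome 9, 107296026 to 107302784, plus strand) overlaps Gm17040 and the antisense gene Gm17041 on the other strand. The strand setting of the counting is not given in the sources used here. Gm17040 was at most 0.31 TPM and Gm17041 at most 0.59 TPM in any library.

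Socs2, a regulator of growth hormone signaling, also rose but remained low, and its untreated counts limit the precision. Reads per untreated library were 6, 6 and 9 in WT, 2, 2 and 3 in GILZ KO and 10, 21 and 5 in GILZ TG. After LPS it reached 2.58, 2.23 and 2.31 TPM in WT, 2.17, 3.29 and 3.61 in GILZ KO and 2.64, 2.66 and 3.58 in GILZ TG, above every untreated library. The fitted log2 fold change was 3.84 (SE 0.39) in WT, 5.38 (SE 0.46) in GILZ KO and 3.26 (SE 0.36) in GILZ TG (edgeR, adjusted p = 1.2e-07, 1.34e-08 and 3.69e-07). The ratio of summed counts per depth, with its exact 95% counting interval, was 9.19 (5.83 to 15.2) in WT, 27.9 (13.2 to 70.6) in GILZ KO and 5.6 (3.94 to 8.18) in GILZ TG. This ratio divides by total reads and not by TMM, so it is on another scale than the fit. The fitted values correspond to 14.3-fold, 41.7-fold and 9.56-fold, the last of them above the counting interval in GILZ TG. With replicate 3 of GILZ TG alone, the log2 fold change in GILZ TG was 4.94. The higher untreated values in GILZ TG were those of replicates 1 and 2, the libraries with the higher sums of other lineage markers.

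**Figure D2:**
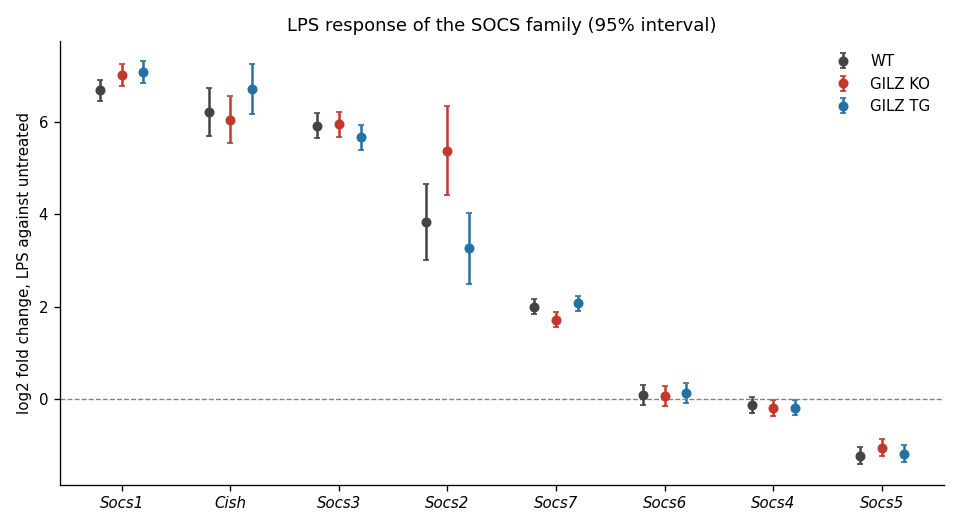
Log2 fold change of LPS against untreated for each SOCS family gene (points) with its 95% interval from the edgeR fit of all 18 libraries (bars), in WT (grey), GILZ KO (red) and GILZ TG (blue). Socs1, Cish and Socs3 lie near 6 to 7 in all genotypes, Socs7 near 2, Socs6 and Socs4 near 0 and Socs5 near −1, and the intervals of Socs2 are the widest.

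Among the members linked to growth factor receptors, Socs7 rose, Socs5 fell, and Socs4 and Socs6 had log2 fold changes between −0.20 and 0.13. Socs7 (chromosome 11, 97362551 to 97398542, plus strand) went from 9.20, 7.31 and 6.87 TPM to 22.1, 18.5 and 19.0 in WT, from 8.60, 8.41 and 8.0 to 18.04, 20.73 and 16.71 in GILZ KO and from 8.93, 8.90 and 8.03 to 24.1, 25.2 and 21.1 in GILZ TG. Untreated and LPS libraries did not overlap. The log2 fold change was 2.0 (SE 0.08) in WT, 1.72 in GILZ KO and 2.07 in GILZ TG (edgeR, adjusted p = 4.5e-13, 4.24e-12 and 2.72e-13).

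Socs5, an inhibitor of epidermal growth factor and interleukin-4 receptor signaling, went from 15.1, 13.5 and 14.0 TPM to 4.06, 3.65 and 4.00 in WT, from 15.6, 15.8 and 14.7 to 5.42, 4.32 and 4.47 in GILZ KO and from 14.0, 13.3 and 16.0 to 3.93, 4.41 and 3.93 in GILZ TG. Every LPS library was below every untreated library. On normalized counts the log2 fold change was −1.23 (SE 0.09) in WT, −1.06 in GILZ KO and −1.19 in GILZ TG (edgeR, adjusted p = 8.21e-10, 8.61e-09 and 1.15e-09). It lies on chromosome 17 at 87107679 to 87137839 (plus strand).

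Socs4 (chromosome 14, 47276931 to 47296102, plus strand) went from 12.8, 12.5 and 11.3 TPM to 7.87, 6.78 and 7.02 in WT, and its log2 fold change on normalized counts was −0.13 (SE 0.08, adjusted p = 0.165, edgeR). In GILZ KO it was −0.19 (adjusted p = 0.044) and in GILZ TG −0.20 (adjusted p = 0.038). These 2 calls are small and depended on the method, with adjusted p = 0.106 and 0.0706 by DESeq2. On the log2(TPM + 0.1) scale the values were −0.75 in WT, −0.82 in GILZ KO and −0.82 in GILZ TG, all called by limma, against a shift of the median gene by −0.62 to −0.64. With replicate 3 of GILZ TG alone the log2 fold change was −0.11. With each library left out in turn, the call was lost in 5 of 6 fits in GILZ KO and in 4 of 6 in GILZ TG, with adjusted p up to 0.0956 and 0.178, and in WT it was gained without LPS replicate 1 (0.0499). The rank of Socs4 by mean TPM was 7707 in WT in both treatments.

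Socs6 went from a mean of 27.3 TPM in untreated WT to 17.8 after LPS, and on normalized counts its log2 fold change was 0.08 in WT, 0.06 in GILZ KO and 0.13 in GILZ TG (edgeR, adjusted p = 0.481, 0.632 and 0.256). On the log2(TPM + 0.1) scale its sign turned, with −0.63, −0.62 and −0.60, called by limma and close to the shift of the median gene on that scale. Its rank by mean TPM went from 5204 to 5400 in WT.

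The summed TPM of the 8 members was 89.5 ± 4.67 (SD, n = 3) in untreated WT, 92.0 ± 4.15 in GILZ KO and 91.5 ± 3.08 in GILZ TG. After LPS it was 1236 ± 65.1, 1249 ± 41.1 and 1217 ± 26.0, or 13.8, 13.6 and 13.3 times as much, and the genotypes overlapped in both treatments. The make-up changed along with the total. Socs3 made up 26.8% ± 3.40 of the family's TPM in untreated WT, 27.1% ± 3.6 in GILZ KO and 29.6% ± 2.36 in GILZ TG, and after LPS 76.6% ± 0.24, 77.0% ± 0.78 and 73.7% ± 2.20. On normalized CPM, which is not scaled by length, the Socs3 share was 17.05%, 17.05% and 19.37% in untreated cells, whereas LPS brought it to 80.09%, 81.12% and 78.26%. In GILZ TG replicate 3 the summed TPM was 95.1 without treatment and 1244 after LPS, with 32.3% and 76.2% from Socs3. Socs1 went from 3.75%, 2.73% and 2.97% to 17.96%, 16.92% and 19.86%. Socs6, which held 30.4%, 30.6% and 28.6% before, held 1.44%, 1.46% and 1.42% after LPS. The order after LPS was Socs3, then Socs1, apart from each other and from the rest. Socs7, Socs6 and Cish followed. In WT, Socs7 was above Cish and Socs6 overlapped both, in GILZ KO Cish was above Socs6 and Socs7 overlapped both, and in GILZ TG Socs7 was above Socs6 and Cish overlapped both. Socs4, Socs5 and Socs2 came last, each apart from its neighbours.

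**Figure D3:**
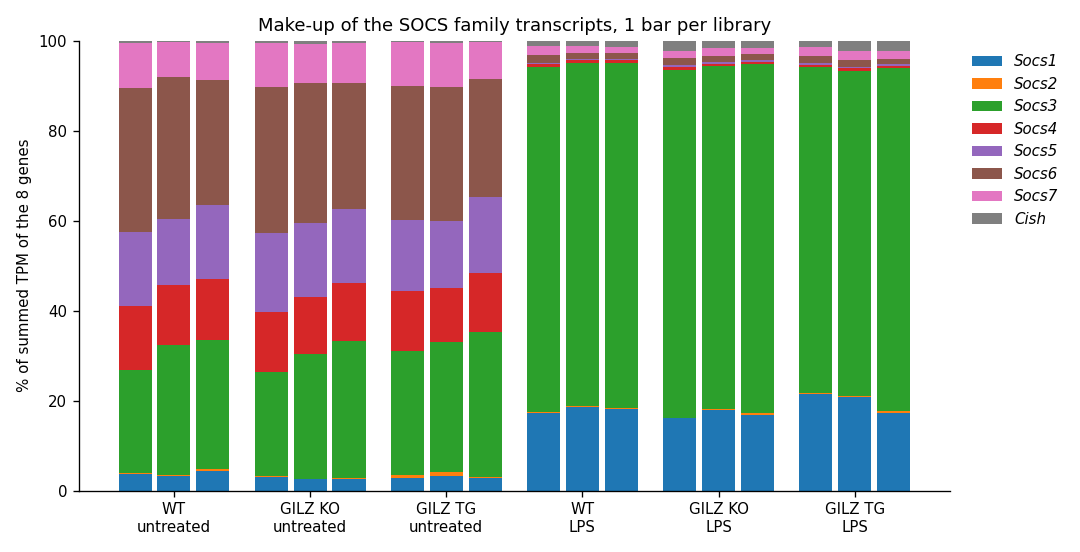
Share of each SOCS family gene in the summed TPM of the 8 genes (%), 1 stacked bar per library, by group with replicates 1 to 3 from left to right. Socs6, Socs3, Socs5, Socs4 and Socs7 share the untreated bars, and after LPS Socs3 and Socs1 fill most of every bar.

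The study asked how the absence or the excess of GILZ changes macrophage gene expression. For the SOCS family, no member passed the test between genotypes in either treatment. In untreated cells 7 members were tested over 12621 genes, as Socs2 fell under the filter on low counts. By edgeR, 0 of 7 were called in GILZ KO against WT (2 at an unadjusted p under 0.05, and 0.0951% of all genes called), 0 in GILZ TG against WT (1, and 0.642%) and 0 in GILZ KO against GILZ TG (0, and 4.94%). After LPS 8 members were tested over 12164 genes, with 0 called in GILZ KO against WT (2 at an unadjusted p under 0.05, and 0.0822% of all genes), 0 in GILZ TG against WT (1, and 0.46%) and 0 in GILZ KO against GILZ TG (2, and 2.6%). DESeq2 also called 0 members in each of the 6 except 1, Socs7, in GILZ KO against GILZ TG after LPS. With so few genes called at all in the comparisons with WT, a share of 0 members is not a result about the family. A difference that misses the threshold does not show equal levels, and the 95% intervals below give the sizes still covered.

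Socs1 was lower in each untreated GILZ KO library (2.29 to 2.73 TPM) than in each WT library (3.01 to 3.73), with a log2 difference of −0.46 (95% interval −0.88 to −0.03) and an adjusted p of 0.508 (edgeR). GILZ TG, at 2.55 to 2.91 TPM, also lay below WT, with −0.30 (−0.72 to 0.11, and −0.30 with replicate 3 alone). After LPS the difference between GILZ KO and WT was −0.08 (−0.27 to 0.12) and that between GILZ TG and WT 0.12 (−0.08 to 0.31, and −0.01 with replicate 3 alone).

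For Socs3 the difference to WT was 0.02 in GILZ KO (−0.25 to 0.29) and 0.21 in GILZ TG (−0.05 to 0.48) without treatment. After LPS it was 0.07 (−0.10 to 0.24) and −0.03 (−0.20 to 0.14). With replicate 3 of GILZ TG alone, the difference of GILZ TG to WT in Socs3 was 0.41 without treatment and 0.08 after LPS.

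Cish after LPS was higher in each GILZ KO library (20.4 to 29.4 TPM) than in each WT library (15.04 to 17.96), and its values in GILZ TG (17.8 to 28.5) reached into the WT range. The log2 difference to WT was 0.42 in GILZ KO (0.06 to 0.78, adjusted p = 0.452, edgeR) and 0.34 in GILZ TG (−0.02 to 0.70, adjusted p = 0.36), or 0.62 with replicate 3 of GILZ TG alone. Socs5 after LPS was likewise at 4.32 to 5.42 TPM in GILZ KO and at 3.65 to 4.06 in WT, a difference of 0.28 (0.06 to 0.50, adjusted p = 0.418). For Socs2 after LPS the difference to WT was 0.31 in GILZ KO (−0.27 to 0.89) and 0.31 in GILZ TG (−0.25 to 0.87). Without treatment Socs2 was not tested in these fits, and fits that did test it are given at the end.

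Socs7 after LPS came closest to a call. Each GILZ TG library (21.1 to 25.2 TPM) lay above each GILZ KO library (16.7 to 20.7), and the log2 difference of GILZ KO against GILZ TG was −0.35 (−0.54 to −0.16, unadjusted p = 0.00204, adjusted p = 0.0573, edgeR). It passed the threshold by DESeq2 (adjusted p = 0.0126), without the filter on low counts (0.0164), with all 18 libraries in the fit (0.0123), and without GILZ KO replicate 2 (0.0432) or GILZ TG replicate 3 (0.0268). It did not pass with DESeq2's size factors (0.0602), the stricter filter (0.054), limma on log2(TPM + 1) (0.169) or log2(TPM + 0.1) (0.167), a replicate block (0.0701), the 6 libraries compared (0.0742) or the other 4 fits with 1 library left out (up to 0.235). With GILZ TG replicate 3 alone it was −0.30. In untreated cells the same difference was −0.02 (−0.16 to 0.12). Socs4 and Socs6 had intervals within −0.32 and 0.31 in all 6 comparisons between genotypes.

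**Figure D4:**
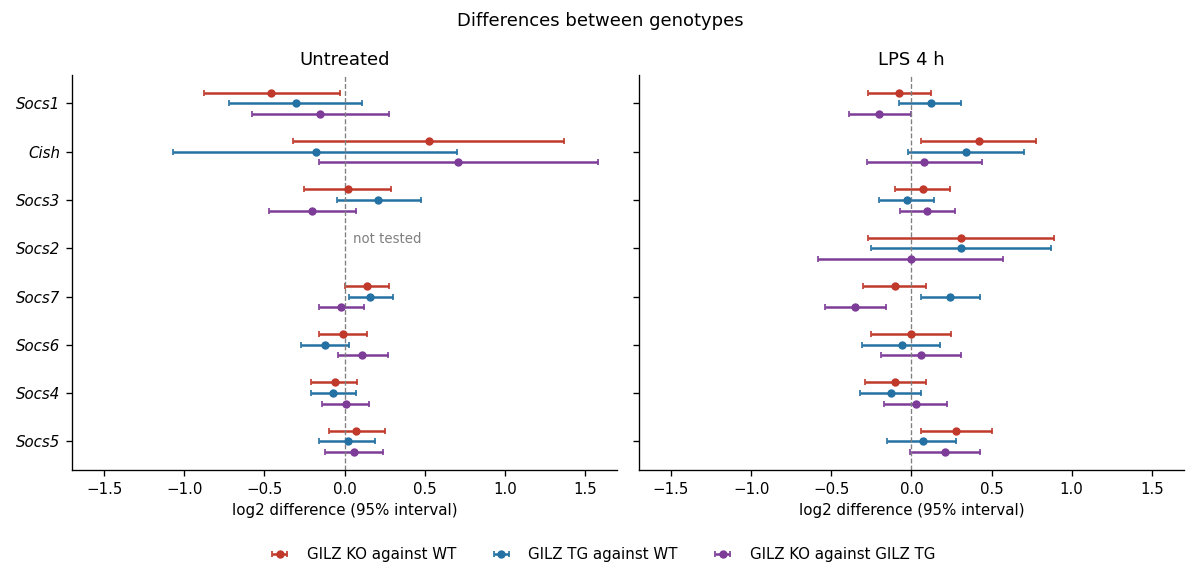
Log2 difference between genotypes (points) with its 95% interval (bars) for each SOCS family gene, in untreated cells (left) and after LPS (right), from edgeR fits of the 9 libraries of each treatment. Socs2 was not tested in untreated cells. After LPS, Socs7 in GILZ KO against GILZ TG is at −0.35, and Cish has the widest intervals without treatment.

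Whether LPS acted differently on the family in the 3 genotypes was tested by interaction terms over 13169 genes. By edgeR, 0 of 8 members were called in GILZ KO against WT (2 at an unadjusted p under 0.05, and 0.0152% of all genes called), 0 in GILZ TG against WT (1, and 0.00759%) and 0 in GILZ KO against GILZ TG (2, and 0.121%). DESeq2 called 0 members in each. For Socs2 the difference of the GILZ KO response was 1.54 on the log2 scale to WT (0.15 to 2.94, adjusted p = 0.723) and 2.13 to GILZ TG (0.81 to 3.44, adjusted p = 0.2). Against GILZ TG replicate 3 alone the latter was 0.43. These differences rest on the 2, 2 and 3 reads of the untreated GILZ KO libraries.

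For Socs7 the difference of the GILZ KO response was −0.35 to GILZ TG (−0.58 to −0.11, adjusted p = 0.234, edgeR) and −0.28 to WT (−0.51 to −0.04, adjusted p = 0.696). With a replicate block, the former passed the threshold (−0.35, adjusted p = 0.0468), and with GILZ TG replicate 3 alone it was −0.37. For Socs1 the response in GILZ TG against WT differed by 0.40 (0.04 to 0.77, adjusted p = 1.0), or by 0.29 with replicate 3 alone. For Socs3 the differences were 0.03 (−0.29 to 0.35) in GILZ KO against WT and −0.25 (−0.57 to 0.07) in GILZ TG against WT.

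Over the 18 libraries, the genes whose log2(TPM + 0.1) went most closely with each member were taken from 12561 genes. These correlations are mostly set by the 9 untreated and 9 LPS libraries lying apart, and are given as a description. Pearson's r was 0.999 between Socs1 and Cd40, a costimulatory receptor, and 0.998 with Tor3a and Nfkbiz. Socs3 went with Ogfr, Rhbdf2 and Pim1, a kinase gene that is itself a STAT target (0.999 each). Cish went with Gm12250 (0.993), Pde4b and Gm43302 (0.992 each), and Socs2 with Cp, the gene of ceruloplasmin (0.984). For these members the nearest genes depended on the scale. On log2(TPM + 1) they were Rab11fip1, Pde4b and Cx3cl1 for Cish, and Scimp, Btg2 and Cp for Socs2. Socs7 went with Plekha2 and Adap2 (0.994 each), Socs5 with Tbccd1, Nme6 and Etv5 (0.995 each), Socs4 with Map3k2 (0.992) and Socs6 with Dcun1d4 and Dlat (0.968 each).

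The genes around the family were described by 8 lists, with counts by edgeR on normalized counts. They stand beside 33.5% of all genes called higher and 35.1% called lower. In WT after LPS, all 4 JAK kinases rose, led by Jak2 (log2 fold change 4.13) and Tyk2 (2.18), with a median of 1.41 beside −0.02 for all genes. Of the 7 STATs, 5 rose and 1 fell, with Stat2 at 4.56, Stat3 at 2.60 and Stat6, the STAT of interleukin-4, at −0.50. Of 14 tested among 23 cytokine ligands of this pathway, all rose, with Il6 at 11.53 and Il12b at 9.64. Among the untreated libraries alone, only 6 of the 23 passed the filter on low counts. The other ligands tested entered through their LPS libraries, so their rise was largely fixed by the filter. Ifnb1 was listed at 0 TPM in all untreated libraries and at 8.52 to 16.4 TPM in WT after LPS. Of 25 tested among 28 receptor chains, 16 rose, such as Il13ra1 (4.72) and Csf3r (2.88), and 4 fell, among them Il6st, the gene of gp130, and Il6ra (−1.46 each).

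Of 15 other inhibitors of the pathway, 8 rose and 4 fell, the latter near the 35.1% called lower among all genes. Usp18, an inhibitor at the interferon receptor, was at 8.04 and Isg15 at 7.50, while Pias3, an inhibitor of STAT3, was at −1.48 and Sh2b3, an adaptor that restrains JAK2, at −1.25. Of 11 listed genes of cullin ligases, not all of them particular to the SOCS box, 10 were called higher and 0 lower, with a median of 0.34. Cul5 was at 0.18 (adjusted p = 0.0283, edgeR), Rnf7 at 0.02 (adjusted p = 0.79) and Arih2 at 0.14, while Cul2 was at 1.15. DESeq2 gave the same counts for the list, but by limma on log2(TPM + 0.1) the split turned to 2 higher and 7 lower. On that scale the JAK kinases had 2 higher and 1 lower, the STATs 4 and 2, the receptor chains 10 and 8, the other inhibitors 5 and 7, and the ligands 13 and 0. Among 27 other SOCS box proteins 16 were tested, of which 6 rose and 6 fell, near the 33.5% and 35.1% among all genes, for example Asb13 (3.26), Spsb1 (3.22) and Spsb4 (−2.26), and on the log2(TPM + 0.1) scale 3 were higher and 11 lower. Of 23 STAT-responsive genes, 19 rose and 3 fell (17 and 3 on the log2(TPM + 0.1) scale), with Nos2 at 11.9, Cxcl10 at 9.61 and Ccnd1 at −1.39. Among the untreated libraries alone, 20 of the 23 passed the filter on low counts.

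**Figure D5:**
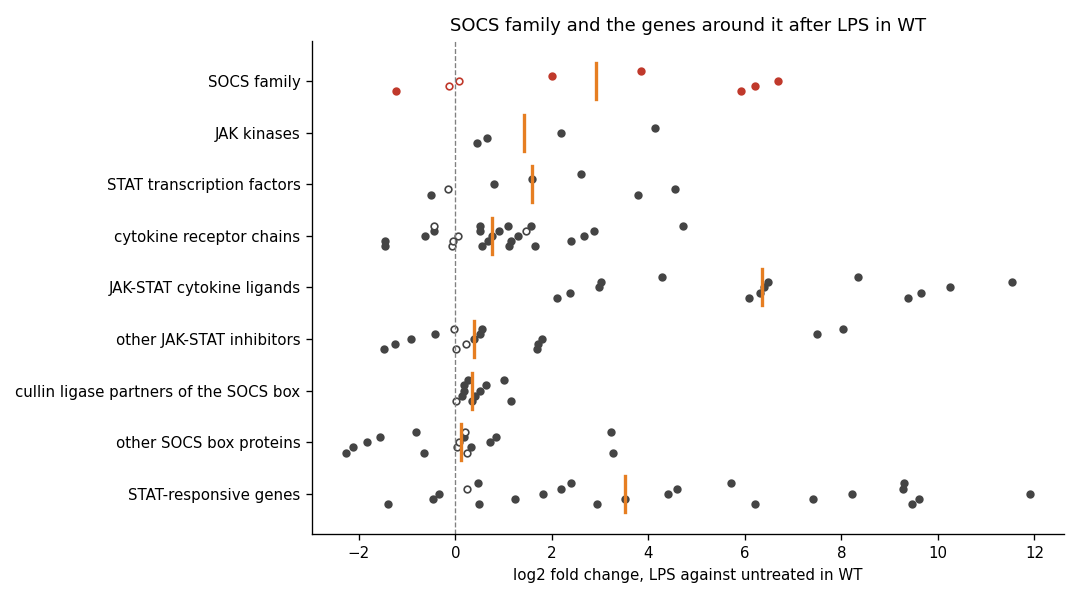
Log2 fold change of LPS against untreated in WT (edgeR) for every tested gene of the SOCS family (red) and of the 8 lists around it (grey), with orange lines for the medians. Filled points passed an adjusted p of 0.05, and open points did not. All tested ligands and JAK kinases are above 0, and the SOCS family runs from −1.23 to 6.69. Only 6 of the ligands passed the filter on low counts among the untreated libraries alone. The value of Ifnb1 (10.25) depends on the prior count, as it was listed at 0 in untreated WT.

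Between genotypes, the lists held 0 called genes in GILZ KO against WT in either treatment by edgeR. Between 0 and 7 genes per list had an unadjusted p under 0.05. Of all genes, 0.0951% were called in GILZ KO against WT without treatment and 0.0822% after LPS. With so few calls, 0 in the lists is not a result about them. DESeq2 called Ifit1 in untreated cells and Ptpn1 and Ccnd1 after LPS, and limma called 0. In GILZ TG against WT after LPS, Il10ra, the interleukin-10 receptor chain, was higher by 0.42 (SE 0.06, adjusted p = 0.0171, edgeR), at 117 to 128 TPM against 89.0 to 94.1 in WT. The share of all genes called in GILZ TG against WT after LPS was 0.46%. Without treatment, GILZ KO and GILZ TG differed in Il12rb2 (0.88), Ghr (−1.68), Asb2 (−1.31), Spsb2 (−0.33), Cd274 (0.60), Ifit1 (1.16) and Junb (−0.38). Between GILZ KO and GILZ TG, 4.94% of all genes were called without treatment and 2.6% after LPS. After LPS, GILZ KO was above GILZ TG in Il12b (1.43, SE 0.18, adjusted p = 0.00585), with 41.0 to 53.8 TPM against 12.5 to 22.7, and in Csf2 (2.05), Csf3 (1.35), Ptpn1 (0.50), a phosphatase that acts on JAK2, and Rab40c (0.53). It was below GILZ TG in Il10ra (−0.32), Il27 (−0.52), Mx1 (−0.47), Irf1 (−0.45), Irf8 (−0.57), Bcl6 (−0.99) and Cxcl9 (−1.73). With GILZ TG replicate 3 alone, the log2 differences of GILZ KO against GILZ TG without treatment were 0.56 for Il12rb2, −1.08 for Ghr, −1.47 for Asb2, −0.21 for Spsb2, 0.70 for Cd274, 0.86 for Ifit1 and −0.32 for Junb. After LPS they were 1.91 for Il12b, 1.14 for Csf2, 0.73 for Csf3, 0.42 for Ptpn1, 0.44 for Rab40c, −0.36 for Il10ra, −0.58 for Il27, −0.46 for Mx1, −0.33 for Irf1, −0.46 for Irf8, −0.46 for Bcl6 and −0.93 for Cxcl9, and Il10ra in GILZ TG against WT was at 0.46. All kept their direction. With each library left out in turn, Il12b kept its call in all 6 fits (adjusted p up to 0.0331), and each of the others lost it in 2 to 5 of 6. The part of the other lineages seen in GILZ TG replicates 1 and 2 in these differences was not tested.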

How the data were processed

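RNA of the 18 libraries was sequenced after poly(A) selection with a directional kit. The authors mapped the reads to GRCm38 with the grape-nf pipeline, and the deposited tables give an expected count per gene, without normalization, and TPM, scaled by effective transcript length and library total. Further deposited tables hold the authors' fold changes and p-values from DESeq2 1.40.2, which were not used. Read quality was checked by the authors with FastQC 0.11.2. The tables hold 38887 genes, of which 37570 matched a symbol, and 14 rows without a name were left out.

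Expected counts were rounded (1 of 144 member counts was not whole, at a tolerance of 1e-06). Genes with low counts were removed with filterByExpr, counts were scaled by TMM, and the quasi-likelihood test of edgeR 4.0.16 was run in R 4.3.3 with Benjamini-Hochberg adjustment over all tested genes at a threshold of 0.05. LPS and interaction comparisons were fitted over all 18 libraries, and genotype comparisons over the 9 libraries of a treatment. Alternatives were DESeq2 1.42.0 and its size factors, limma 3.58.1 on log2(TPM + 0.1) and log2(TPM + 1), no filter, a minimum of 10 counts, other sets of libraries, a replicate block and each library left out. Scripts were tested on simulated data. GILZ TG from replicate 3 alone was chosen after seeing the data.

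The sources used here give independent preparations within a treatment, and p-values measure the spread between libraries. Replicates of the same number in both treatments of a genotype correlated above 0.1 in 4 of 9 pairs (−0.033 to 0.605). These were all 3 pairs of GILZ TG and replicate 1 of WT (0.264). Those of different genotypes did so in 2 of 18 pairs (−0.136 to 0.241). Whether the numbers pair the samples cannot be read from these correlations alone. GILZ TG replicates 1 and 2 had higher sums of other lineage markers in both treatments, and a low correlation does not show unpaired samples. Sums of stromal markers kept the order of the replicates from untreated to LPS in every genotype. In WT they were 22.9, 11.5 and 14.6 TPM and then 22.2, 14.6 and 18.0. B lineage and neutrophil lineage sums kept that order in WT and GILZ TG but not in GILZ KO. Whether same-numbered libraries share a preparation was not tested. The main LPS fits used no pairing, and the replicate block did.

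The members and lists were chosen with earlier results of these data known. Named genes were the members, the 3 most alike genes of each (or fewer in the text), and in each list the genes with the largest changes in WT after LPS and those called between genotypes. Intervals of counts are exact at 95% and cover counting error only. The depth limits Socs2 and Cish, with as few as 2 and 7 reads in an untreated library. Promoter windows came from RefSeq. Plots were made in Python 3.11.15 with matplotlib 3.10.9. Some items are not reported here.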

Additional observations from a re-analysis of the deposited data

Results flagged for a closer look

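Ifit1, an interferon-induced gene among the STAT-responsive genes, differed between GILZ KO and GILZ TG in its LPS response, by −1.47 on the log2 scale (SE 0.24, adjusted p = 0.0237, edgeR interaction term). Untreated libraries had 9.42 to 16.9 TPM in GILZ KO and 4.31 to 6.50 in GILZ TG, and after LPS they had 2005 to 2321 and 2574 to 2597. When each library was left out in turn, the difference was between −1.66 and −1.14 with adjusted p between 0.00714 and 0.0864, past the threshold in all but 5 of 12. With GILZ TG replicate 3 alone, and the spread taken from the other groups, it was −1.22.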

How the results depend on the processing

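Of 566 values of SOCS members under alternatives, 533 kept their direction and side of the threshold, 15 lost a call, 9 gained one and 9 changed sign. Of 844 values of other list genes, 135 lost their call and 0 changed sign. Socs6 after LPS turned on the TPM scale, to −0.60 with log2(TPM + 1) and −0.63 with log2(TPM + 0.1) in WT, −0.60 and −0.62 in GILZ KO and −0.57 and −0.60 in GILZ TG, where the median of all genes shifted by −0.51 to −0.64 and the share of higher calls fell from 48.9% to 19.8% in WT, 48.4% to 18.8% in GILZ KO and 48.9% to 19.4% in GILZ TG. With 1 library left out, it was −0.05 to 0.17 in WT and −0.05 to 0.13 in GILZ KO. On CPM, Socs3 made up 17.05% of the family in untreated WT, 17.05% in GILZ KO and 19.37% in GILZ TG, and 80.09%, 81.12% and 78.26% after LPS, and the family rose 12.7 times in GILZ TG.

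Counts of all genes called between genotypes varied with the method, and the cause was not tested. In untreated GILZ KO against WT, 12 genes became 79 with DESeq2, 21 without a filter, 20 with 6 libraries and 5 to 6 with 1 library left out. In untreated GILZ TG against WT, 81 became 315 with DESeq2, 175 without a filter, 41 and 32 with limma, 20 with 6 libraries, 26 with replicate 3 alone and 16 to 665 with 1 left out. In untreated GILZ KO against GILZ TG, 623 became 1218, 268 and 264 with limma, 34 with replicate 3 alone and 79 to 1306. After LPS, 10 in GILZ KO against WT became 100 with DESeq2, 88 without a filter, 17 with log2(TPM + 1), 29 with all 18 libraries, 27 with 6 and 4 to 23. For GILZ TG against WT, 56 became 274, 412, 30 and 31 with limma, 252, 15 and 15 to 1067. For GILZ KO against GILZ TG, 316 became 715, 822, 147 and 149 with limma, 795, 34 with replicate 3 alone and 24 to 1403. For the LPS responses, 2 in GILZ KO against WT became 20 with DESeq2, 1 with size factors, a stricter filter or limma, and 1 to 4. In GILZ TG against WT, 1 became 2 with DESeq2 or log2(TPM + 1), 0 with replicate 3 alone and 1 to 8. In GILZ KO against GILZ TG, 16 became 150 with DESeq2, 63 without a filter, 10 with log2(TPM + 0.1), 0 with replicate 3 alone and 0 to 82. LPS alone called 8543 to 8819 genes in WT, 8536 to 8692 in GILZ KO and 8560 to 8780 in GILZ TG with 1 library left out, and 6 to 7 members.

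With the replicate block, these 3 responses gave 8, 2 and 144 genes, and 1 member, Socs7, was called between GILZ KO and GILZ TG (−0.35, adjusted p = 0.0468). In addition, 1 member was called in GILZ KO against GILZ TG without treatment with all 18 libraries (Socs2, −2.15, adjusted p = 0.0358) and 0 to 1 with 1 left out, and 1 after LPS with DESeq2, no filter or all 18 libraries (Socs7) and 0 to 1 with 1 left out. Without the filter on low counts, all 8 members, Socs2 included, were tested in untreated cells, and 0 were called between any genotypes. With all 18 libraries, 0 of 8 were called in the untreated comparisons with WT. Socs2 was called without GILZ TG untreated replicate 3 (−2.52, adjusted p = 0.0164, edgeR). That fit keeps GILZ TG replicates 1 and 2, the libraries with the higher sums of other lineage markers. They held 10 and 21 reads of Socs2, against 5 in replicate 3 and 2, 2 and 3 in untreated GILZ KO. Socs2 fell under the filter on low counts in the main untreated fit. It entered the fit without replicate 3 through GILZ TG replicates 1 and 2, where it was highest. Its direction in that fit was therefore largely fixed by the filter. The part of the other lineages in both Socs2 calls was not tested.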
